A study of Mus with 6 samples.

Results

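Mir34a, Lncpint, Pvt1 and Norad are non-coding RNAs that are induced by the tumour suppressor p53 or by DNA damage, or that guard genome stability. They were taken by name from the authors' deposited table of named RNAs, and all 4 were found among its 2282 names. RNA was measured by sequencing of total RNA from right substantia nigra pars compacta, a part of the midbrain whose dopaminergic neurons degenerate in Parkinson's disease. All 6 samples came from mice that overexpress human alpha-syn (A53T), the Parkinson-linked mutant α-synuclein. In 3 samples the mice had received AVE0991, an agonist of the angiotensin-(1-7) receptor Mas, at 10 mg/kg by daily intraperitoneal injection for 30 days. In the 3 samples of the model group they had received 0.9% saline by the same route and schedule. The sources used here give neither the age of the mice nor the promoter of the transgene, and mice without the transgene are not analysed here. Whether each sample is a separate animal is not stated in the labels, so p-values reflect only how far these samples differ among themselves, which may be technical.

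p53 is a transcription factor that is stabilised after DNA damage and switches on genes that arrest the cell cycle, repair DNA or kill the cell. Its targets include non-coding RNAs: the miR-34 family represses cell cycle and survival genes, and several long non-coding RNAs (lncRNAs) feed back on p53 target expression. In neurons, which no longer divide, DNA damage and p53 activity have been studied chiefly in connection with stress and degeneration. The question here was whether the 4 RNAs differ between AVE0991-treated and saline-treated mice of this genotype, and whether they move together.

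The table gives, for each name, the mean normalized count of each group with a test statistic and its degrees of freedom. From these the whole counts of each library were recovered for 2245 of 2247 names with a value, the 4 RNAs included. Within each group the recovered libraries are called a, b and c; they carry no replicate number and were not matched to samples by their values. Values of single libraries are given in the order a, b, c. Recovered libraries held from 2158561 to 2424634 counts with AVE0991 and from 2671806 to 3392660 in the model group. Model library c stood apart from the other model libraries. Over the names tested, its rank correlation (Spearman) with AVE0991 libraries ran from 0.951 to 0.958, against 0.920 to 0.932 for model libraries a and b. Its correlation with model libraries a and b was higher still, at 0.968 and 0.967. Its scaling factor (TMM, the trimmed mean of M-values) was 0.807, whereas it was above 1 in the other 5 libraries. By normalized count it was the model library closest to the AVE0991 mean for each of the 4 RNAs. By share of recovered counts this held for Mir34a but not for Lncpint, Pvt1 or Norad. Results are given with and without model library c where it matters. None of the 22 listed markers of dopaminergic neurons, microglia, astrocytes and oligodendrocytes is in the named table, which holds mostly non-coding RNAs, so the labelled tissue was not checked against them.

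Mir34a, the gene of miR-34a and a direct transcriptional target of p53, fell with AVE0991. Its normalized counts (counts divided by the authors' library factor) were 1224, 1195 and 1214 with AVE0991, against 4177, 4257 and 3281 in the saline-treated model. The groups did not overlap: the highest AVE0991 library was well below the lowest model library, which was library c. The mean was 1211 ± 14.7 with AVE0991, against 3905 ± 542 in the model group (n = 3 per group, ± SD), so the treated mean was 31.0% of the model mean. The log2 fold change was -1.62 ± 0.14 (SE; 95% interval -1.94 to -1.30), with an adjusted p of 0.000847 (edgeR quasi-likelihood test; Benjamini-Hochberg over all 1869 names tested). At this threshold, an adjusted p under 0.05, 7.7% of names were lower with AVE0991, and 22.5% of names had lower values with no overlap between groups (39% in either direction). Of the 1869 names, 4 had a smaller p. Without model library c the log2 fold change was -1.75 (adjusted p = 0.000200, edgeR), and the call held in each of the 6 fits that left out a library. In a bulk sample, fewer cells that make an RNA and less of it per cell cannot be told apart.

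**Figure D1:**
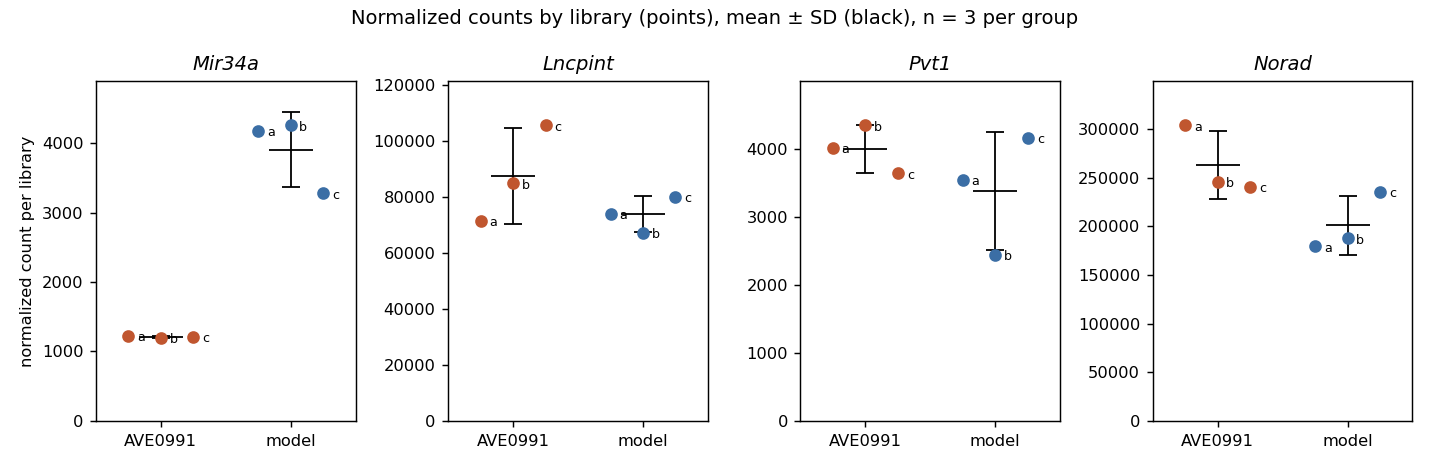
Normalized counts of Mir34a, Lncpint, Pvt1 and Norad (vertical axes, each starting at 0) in the 3 AVE0991 and 3 model libraries; points are libraries a, b and c, and black bars are means with SD. Mir34a lies between 1195 and 1224 with AVE0991 and between 3281 and 4257 in the model group, while the groups overlap for Lncpint and Pvt1 and nearly touch for Norad.

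The spread of Mir34a was unequal between groups. With AVE0991 its coefficient of variation was 1.21%, below the 2.93% that counting error alone gives at its depth, and 0.535% of tested names had a smaller one in that group. In the model group it was 13.9%. With 3 values, a spread this far below counting error can arise from counting alone. In the authors' deposited table the test of Mir34a has a statistic of -8.61 on 2.00 degrees of freedom and an unadjusted p of 0.0132. Of the 2247 names with a value there, 18.8% have an unadjusted p under 0.05. After Benjamini-Hochberg adjustment of that table's p-values here, Mir34a had 0.233 and did not pass, and 0 names passed; the edgeR and DESeq2 tests on the recovered counts called 282 and 406 names, and edgeR gave an unadjusted p under 0.05 for 572 (30.6%). The deposited test estimates the spread from the 3 values of each group alone.

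RefSeq places Mir34a on chromosome 4 with a span of 102 bases, as for a miRNA hairpin. The counts come from total RNA libraries at a locus named after the miRNA and do not measure mature miR-34a. Loci of this class were mostly below 0: the 220 miRNA loci tested had a median log2 fold change of -0.35 (quartiles -0.66 and -0.09), against 0.00 for all names (quartiles -0.38 and 0.47) and 0.07 for 1478 lncRNAs. Among miRNA loci 14.5% were called lower, 32 in all, and 0.455% higher; among lncRNAs 7.04% were called lower and 8.12% higher. Mir34a was 1 of the 32, with 8 loci at a lower fold change and 1 with a smaller p. How far the general shift of miRNA loci contributes to the fall of Mir34a was not tested.

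**Figure D2:**
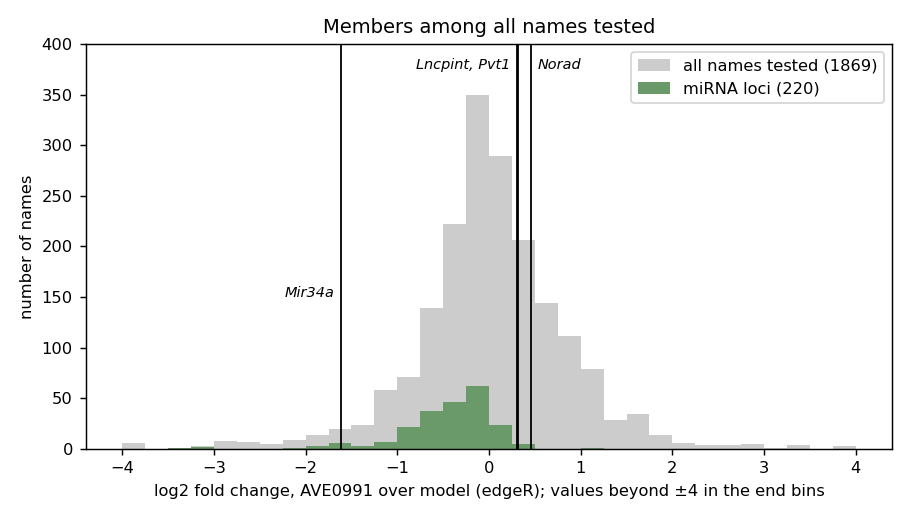
Number of names (vertical axis) by log2 fold change of AVE0991 over model (edgeR, horizontal axis), for all 1869 names tested (grey) and the 220 miRNA loci among them (green); vertical lines mark the 4 RNAs. Mir34a, at -1.62, lies in the low tail, and Lncpint, Pvt1 and Norad, at 0.32, 0.31 and 0.46, lie within the bulk.

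Lncpint, known from mouse work as a p53-induced lncRNA that interacts with the Polycomb repressive complex, did not pass the test. Its normalized counts were 71555, 84848 and 105541 with AVE0991, against 74059, 67182 and 80061 in the saline-treated model. The groups overlapped, since AVE0991 library a was lower than model libraries a and c, while AVE0991 libraries b and c were above every model library. The means were 87314 ± 17127 with AVE0991, against 73767 ± 6444 in the model group (n = 3 per group, ± SD). The log2 fold change was 0.32 ± 0.18 (SE; 95% interval -0.10 to 0.73; edgeR adjusted p = 0.280). The interval allows anything from 0.935 times to 1.66 times the model level. In the main fit 31.0% of tested names had a larger fold change than Lncpint. AVE0991 library c decides much of the estimate: without it the log2 fold change was 0.11 (edgeR adjusted p = 0.710).

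Pvt1, a p53-responsive lncRNA whose gene lies next to Myc, had 4017, 4345 and 3638 normalized counts with AVE0991, against 3547, 2441 and 4160 in the saline-treated model. The groups overlapped: model library c was above AVE0991 libraries a and c, and model library b was the lowest of all 6. The means were 4000 ± 354 with AVE0991, against 3383 ± 872 in the model group (n = 3 per group, ± SD). Its log2 fold change of 0.31 ± 0.20 (SE; 95% interval -0.16 to 0.78) did not pass (edgeR adjusted p = 0.354). The estimate was 0.11 without model library b (edgeR adjusted p = 0.762) and 0.46 without model library c (edgeR adjusted p = 0.125).

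Norad, a lncRNA that is induced by DNA damage and holds back Pumilio proteins, which otherwise lower the level of chromosome maintenance factors, was higher in every AVE0991 library than in any model library. Its normalized counts were 303855, 245913 and 240424 with AVE0991, against 179651, 187966 and 235479 in the saline-treated model. In normalized counts the gap between the groups was small, because model library c lay just below AVE0991 library c. This gap depends on the scaling. As a share of recovered counts, Norad was 12.4, 10.2 and 10.3% with AVE0991, against 7.69, 7.86 and 7.51% in the model group. Of all names, 16.5% were higher with no overlap. The means were 263397 ± 35145 with AVE0991, against 201032 ± 30120 in the model group (n = 3 per group, ± SD). The log2 fold change was 0.46 ± 0.15 (SE; 95% interval 0.11 to 0.80), a fold of 1.37 (interval 1.08 to 1.74). Its unadjusted p was 0.0159, and its adjusted p of 0.0785 did not pass (edgeR quasi-likelihood test); 7.38% of all names were called higher, 16.3% were higher at an unadjusted p under 0.05 and 25.3% had a larger fold change. The call turned with the setting. Without model library c Norad passed with a log2 fold change of 0.57 (edgeR adjusted p = 0.0108). It did not pass in the 5 other fits that left out a library (edgeR adjusted p from 0.127 to 0.247). With all 6 libraries it passed with DESeq2, limma-voom, a robust fit or scaling to library totals (adjusted p from 0.0330 to 0.0427). With all 6 it did not pass with DESeq2 size factors, no filter or the authors' library factors (edgeR adjusted p from 0.0711 to 0.131). Nor did it pass with the authors' deposited p-values after adjustment (adjusted p = 0.302). It thus passed in 5 of 14 alternatives.

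For a single RNA, an exact two-sided permutation test over 3 against 3 libraries cannot go below p = 0.10. Mir34a and Norad reached that smallest value, Lncpint had p = 0.30 and Pvt1 had p = 0.40 (exact permutation test on log2 normalized counts). An RNA whose groups do not overlap reaches it in any case, and 39% of all names had no overlap in either direction. In the edgeR test 1 of the 4 RNAs was called, against 15.1% of all names in either direction.

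The 4 RNAs did not all move together. Mir34a was lower with AVE0991 while the log2 fold changes of the other 3 were above 0, between 0.31 and 0.46, with only the interval of Norad leaving out 0. The comparison was made directly with the log2 ratio of 2 RNAs in the same library, in which library scaling cancels, for all 6 pairs. Mir34a relative to Norad lay between -2.27 and -1.94 in the 3 AVE0991 libraries, on the log2 scale and set against the mean of the model libraries, while the model libraries themselves ran from -0.48 to 0.26 around that mean. The mean difference of AVE0991 minus model was -2.07 for Mir34a over Norad, -1.95 for Mir34a over Pvt1 and -1.91 for Mir34a over Lncpint. In these 3 pairs the groups did not overlap, but all 3 contain Mir34a and so are not separate evidence. Each had p = 0.10 by the exact permutation test, the smallest possible, and 0.20 after adjustment over the 6 pairs, so none can pass at this sample size. With a library left out, the difference ran from -2.31 to -1.94 for Mir34a over Norad, from -2.24 to -1.67 for Mir34a over Pvt1 and from -2.09 to -1.76 for Mir34a over Lncpint.

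Among the 3 lncRNAs the ratios overlapped between groups. The difference was -0.04 for Lncpint over Pvt1, -0.16 for Lncpint over Norad and -0.12 for Pvt1 over Norad, each with p = 0.80 by the exact permutation test (adjusted p = 0.80). Individual AVE0991 libraries departed from the model mean by up to 0.38 upward and 0.65 downward on the log2 scale, both in pairs with Lncpint. A p of this size does not show that these lncRNAs changed alike.

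**Figure D3:**
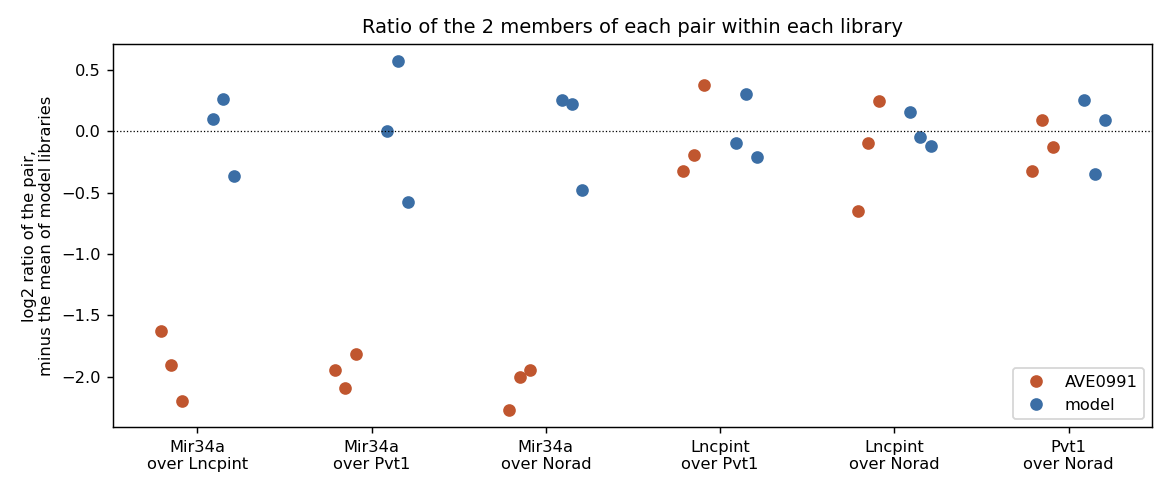
Log2 ratio of the 2 RNAs of each pair within each library, minus the mean of the model libraries (vertical axis), for AVE0991 (orange, left) and model (blue, right) libraries a, b and c from left to right. In the 3 pairs with Mir34a the AVE0991 libraries lie between -1.62 and -2.27, below every model library, and in the other 3 pairs the groups overlap.

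The AVE0991 libraries ranked differently for different RNAs. By normalized count with AVE0991, Lncpint was lowest in library a and highest in library c, whereas Norad was highest in library a and lowest in library c. As a share of recovered counts, Norad with AVE0991 was lowest in library b (12.4, 10.2 and 10.3%). Pvt1 was highest in library b. In the model group Lncpint and Pvt1 ranked the libraries alike by normalized count. By that measure library c held the highest value of Lncpint, Pvt1 and Norad and the lowest value of Mir34a. Apart from that of Mir34a, these model ranks depend on the scaling. As a share of recovered counts, library c was the lowest model library for Lncpint (3.17, 2.81 and 2.55%) and Norad (7.69, 7.86 and 7.51%). Library a was then the highest for Pvt1 (0.152, 0.102 and 0.133%). Across the 6 libraries, which fall into 2 groups, Pearson's r of log2(normalized count + 1), given as a description, was -0.83 between Mir34a and Norad and 0.64 between Pvt1 and Norad. Between Lncpint and Norad it was 0.25.

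Other non-coding RNAs linked to p53 or DNA damage were taken from lists of 31 names, of which 12 are in the table and 11 could be tested. The lists mix RNAs that p53 induces (such as Trp53cor1) or represses (such as H19) with miRNA loci that act on p53 (such as Mir30d). Of the 11, 0 rose, 4 fell and 7 did not pass. Their median log2 fold change was -0.50, against 0.00 for all names and -0.35 for miRNA loci. Over all names 7.7% were called lower and 7.38% higher. Those that fell were the lncRNAs Trp53cor1 and H19 and the miRNA loci Mir194-2 and Mir30d, with the loci from a class in which 14.5% were called lower and 0.455% higher. Because the listed RNAs stand in different relations to p53, their count and median give no direction of p53 activity. The list was also chosen with earlier results of these data known, so its count is not independent evidence of a direction.

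Trp53cor1 (lincRNA-p21), a lncRNA that p53 induces beside Cdkn1a, had normalized counts of 136, 135 and 118 with AVE0991, against 220, 215 and 218 in the saline-treated model. The groups did not overlap, and model library c lay with the other model libraries here. Its log2 fold change was -0.68 ± 0.18 (SE; edgeR adjusted p = 0.0420). This call was lost in 8 of 14 alternatives (adjusted p from 0.0251 to 0.212 over all 14), 5 of them with a library other than model library c left out.

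H19, an imprinted lncRNA that p53 represses, had a log2 fold change of -1.70 ± 0.31 (SE; edgeR adjusted p = 0.0119) and averaged 96.5 ± 32.5 normalized counts with AVE0991, against 331 ± 70.1 in the model group (n = 3 per group, ± SD). Its call held in each fit that left out a library. Mir194-2, a locus of a miRNA that p53 induces in human cells, averaged 119 ± 42.2 with AVE0991, against 293 ± 72.4 in the model group (n = 3 per group, ± SD; log2 fold change -1.23 ± 0.30, SE; edgeR adjusted p = 0.0289). Mir30d, whose miRNA has been reported to target p53 in human cells, averaged 4141 ± 818 with AVE0991, against 7486 ± 1105 in the model group (n = 3 per group, ± SD; log2 fold change -0.79 ± 0.18, SE; edgeR adjusted p = 0.0253). The Mir194-2 call was lost when AVE0991 library a, AVE0991 library c or model library b was left out (edgeR adjusted p from 0.0906 to 0.107), and the Mir30d call when any of AVE0991 libraries b and c and model libraries a and b was left out (edgeR adjusted p from 0.0709 to 0.0982).

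Dleu2, the lncRNA that hosts Mir16-1, had 3159, 2961 and 3170 normalized counts with AVE0991, against 5239, 4541 and 3987 in the saline-treated model. The groups did not overlap, and the log2 fold change of -0.50 ± 0.15 (SE) just missed the threshold (edgeR adjusted p = 0.0538). It passed in 5 of 14 alternatives, among them DESeq2 (adjusted p = 0.0125) and edgeR without model library c (-0.61, adjusted p = 0.0172). Mir16-1, a locus of a p53-processed miRNA, had a log2 fold change of -0.30 ± 0.14 (SE; edgeR adjusted p = 0.209). Since the strand and feature settings of the counting are not given, reads of Mir16-1 and its host may not be separate evidence.

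The remaining tested RNAs of the lists did not pass. Neat1 and Gas5, both tied to p53 or growth arrest, had log2 fold changes of 0.24 ± 0.32 and 0.23 ± 0.15 (SE). Snhg1 and Mir125b-2 had -0.12 ± 0.16 and -0.04 ± 0.14 (SE). Malat1 varied several-fold within each group, with 117614, 27680 and 22053 normalized counts with AVE0991, against 134799, 185120 and 28999 in the saline-treated model (edgeR adjusted p = 0.418). Meg3, which activates p53 when overexpressed in human cells, had more than 1 possible set of counts and was not tested; the authors' deposited table gives mean normalized counts of 218164 with AVE0991, against 213794 in the model group, with an unadjusted p of 0.939.

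**Figure D4:**
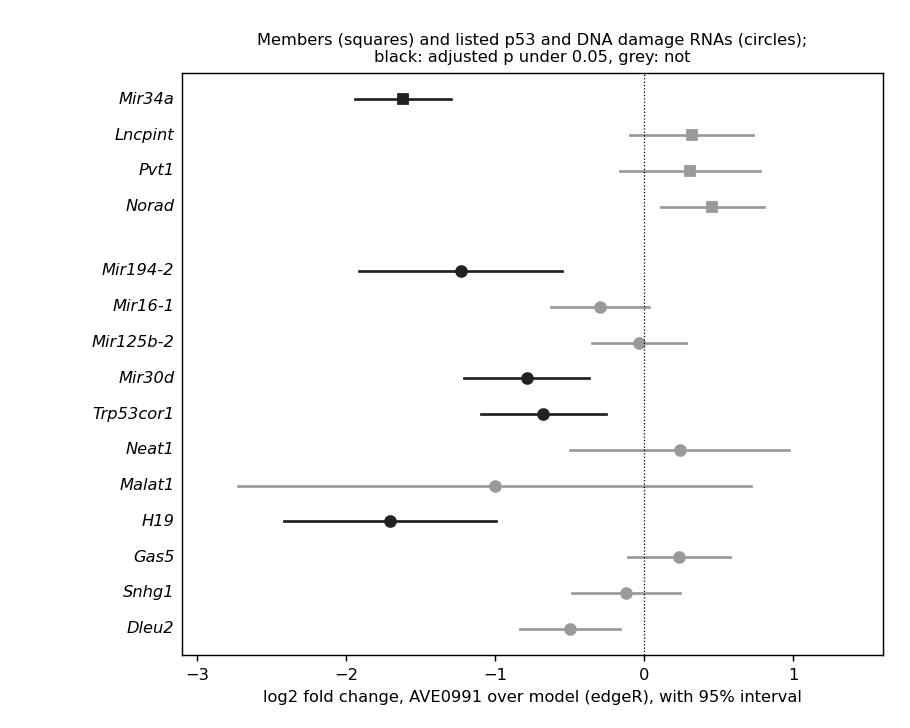
Log2 fold change of AVE0991 over model with its 95% interval (edgeR, horizontal axis) for Mir34a, Lncpint, Pvt1 and Norad (squares) and the 11 tested RNAs of the p53 and DNA damage lists (circles); black marks an adjusted p under 0.05. Mir34a, Mir194-2, Mir30d, Trp53cor1 and H19 are black and lie below 0, and no RNA is black above 0.

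The genes around the 4 RNAs in RefSeq order, 10 on each side, held 7 further names of the table, 4 of them abundant enough to test. Near Lncpint on chromosome 6, the lncRNA 2210408F21Rik, which lies 2 genes away and does not overlap it, had 12369, 12805 and 13419 normalized counts with AVE0991, against 7119, 7393 and 9679 in the saline-treated model. The groups did not overlap, and it rose with a log2 fold change of 0.74 ± 0.17 (SE; edgeR adjusted p = 0.0233). The call was lost in each fit without a library other than model library c (edgeR adjusted p from 0.0559 to 0.101). Near Norad on chromosome 2, Gm14169 and 4930405A21Rik did not pass, with log2 fold changes of 0.51 ± 0.19 and 1.13 ± 0.46 (SE; edgeR adjusted p = 0.102 and 0.139). Near Mir34a, Mir7023 had -0.38 ± 0.26 (SE; edgeR adjusted p = 0.379). Near Pvt1 on chromosome 15, D030024E09Rik and Gm41335 had too few counts to test, as had Gm6117 near Lncpint. RefSeq also places Gm13835 over Lncpint, Macroh2a3 over Pvt1 and Gm14170 over Norad, so some reads assigned to these lncRNAs may belong to the overlapping genes.

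For each of the 4 RNAs, the 3 names most like it were found by Pearson's r of log2(normalized count + 1) over the 6 libraries, among 500 names that are not clone names. Because the groups differ, a high r partly restates the group difference. The names most like Mir34a were Mir6408 (r = 0.999), Lhx1os (r = 0.997) and Mir3075 (r = 0.99), all called lower. Mir6408 had 180, 175 and 177 normalized counts with AVE0991, against 1827, 2022 and 1094 in the saline-treated model. As with Mir34a, the AVE0991 libraries were close together and model library c was the lowest of its group, which the choice by likeness favours. Mir3075 had a log2 fold change of -1.52 ± 0.18 (SE; edgeR adjusted p = 0.00195).

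The names most like Norad were Pantr1, Ctrcos and Ptgs2os (r = 0.99, 0.98 and 0.98), with log2 fold changes of 0.68, 0.56 and 1.73, none past the threshold (edgeR adjusted p = 0.0765, 0.0852 and 0.0564). Without model library c all 3 passed (edgeR adjusted p from 0.00308 to 0.0344), but that fit called 414 names, against 282 with all 6 libraries. Because these 3 were chosen for likeness to Norad over the same libraries, their passing is not separate evidence. Ptgs2os had 389, 229 and 193 normalized counts with AVE0991, against 39.9, 56.4 and 159 in the saline-treated model. This is the same order of libraries as Norad, which the choice by likeness favours. The names most like Lncpint were Sox5os3, Uchl1os and Pitpnm2os1 (r = 0.94, 0.93 and 0.91), and those most like Pvt1 were Hectd2os, Cdr1os and Arhgap27os3 (r = 0.98, 0.94 and 0.94). None of these 6 passed, and their log2 fold changes ran from 0.18 to 0.56.

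Markers of neighbouring brain regions were read from lncRNAs of the table. The 2 listed forebrain lncRNAs in the table, Dlx6os1 and Emx2os, rose, with model library c the highest of its group for both. Their summed normalized counts were 15135 to 20542 with AVE0991, against 1879 to 4750 in the model group. Most of the sum came from Dlx6os1, which averaged 17283 with AVE0991 and 2705 in the model group. Emx2os averaged 628 and 369. Over all names 7.38% were called higher. The Dlx6os1 call held in each fit that left out a library (log2 fold change 2.74 ± 0.37 with all 6, SE; edgeR adjusted p = 0.00335), whereas the Emx2os call was lost in the 5 fits without a library other than model library c (edgeR adjusted p from 0.0687 to 0.124). Of 6 lncRNAs of the Hox clusters, active in hindbrain and spinal cord, Hotairm1 fell and 5 did not pass, against 7.7% of all names lower. The Hotairm1 call was lost in 4 of the 6 fits that left out a library (edgeR adjusted p from 0.0689 to 0.101). The median log2 fold change of the 6 was -1.11, and 4 of 6 were below 0. Hoxaas2 had -2.57 with no overlap between groups, at 0 in AVE0991 library c (edgeR adjusted p = 0.121). The summed counts of the 6, most of them from Evx1os, overlapped, at 683 to 799 with AVE0991, against 651 to 881 with saline. The part that a different share of tissue in the dissected samples may have in the values of Mir34a and Norad was not tested.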

How the data were processed

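RNA-seq of 3 AVE0991 and 3 model samples was analysed; groups come from the titles. Per the labels' protocols, reads were checked with FastQC 0.11.8 and trimmed with fastp 0.19.5. The build was mm9, and DESeq2 1.10.1 and STAR 2.7.7a are named, per the submitters' processing notes. The counter and its strandedness were not given in the sources used here, nor was its annotation.

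The authors deposited whole-number counts per NONCODE identifier, used here only for depth (37036986 to 42379095 counts per AVE0991 sample and 43991913 to 52029003 per model sample), since no file pairs identifiers with names. Per the file headers, the deposited named table gives a mean signal per group, a test statistic (a score) with degrees of freedom, an unadjusted p-value, a ratio and its log2; the ratio is that of the means after adding 1. These values were made by the authors from 3 values per group.

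Each mean is that of 3 counts divided by library factors, and statistic and degrees of freedom give both variances. Library factors were read from the smallest means and refined by least squares, and whole counts that return mean and variance were searched, with values taken as rounded to 10 significant digits. A single set was found for 2245 of the 2247 names with a value (99.91%); 2 names, Meg3 among them, had several and were not tested; 35 were 0 throughout. The recovered counts gave back the authors' statistic within a relative difference of 1.4e-07. The recovery allowed a relative error of 2e-11 in the weights, and the tolerances were widened only where no set was found. The recovery and the tests were also run on simulated data, with outcomes not reported here. In the simulated recovery, the low names from which the library factors are first read kept their real counts. That step was therefore not tested on new values.

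The main test was edgeR 4.0.16 (quasi-likelihood, TMM, filterByExpr, R 4.3.3), Benjamini-Hochberg adjusted over 1869 names, with SE as log2 fold change over the square root of F. Alternatives used DESeq2 1.42.0, limma 3.58.1, other scalings and filters, and each library left out. Exact permutation tests were computed with NumPy 2.4.6. Their p-values over the 6 pairs and the authors' deposited p-values were adjusted with SciPy 1.17.1.

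The 4 RNAs and the lists were chosen with earlier results of these data known. Besides the 4, the rule named measured list members, neighbours within 10 RefSeq genes and the 3 most alike names per RNA. RefSeq (assembly GRCm38.p6) gave class and gene order for 2270 of 2282 names by symbol; its coordinates are not printed, since the files use another build.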

Additional observations from a re-analysis of the deposited data

How the results depend on the processing

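Over 14 alternatives, the log2 fold change of Mir34a ran from -1.75 to -1.56, and its call was lost only with the authors' deposited p-values after adjustment (-1.69, adjusted p = 0.233). That test uses the 3 values of each group alone. Norad, not called in the main test, passed in 5 of the 14. These were scaling to library totals (0.51), DESeq2 (0.46), limma-voom (0.46), a robust fit (0.46) and the fit without model library c (0.57). The value of Norad ran from 0.34 to 0.57 with a library left out. Lncpint and Pvt1 passed in none of the 14 and stayed above 0 (0.11 to 0.44 and 0.11 to 0.46). The count of the 4 RNAs called was thus 2 under library totals, DESeq2, limma-voom and the robust fit, 0 with the authors' adjusted p-values, and 1 to 2 with a library left out. Of the 11 listed p53 and DNA damage RNAs, 4 were called, all lower, against 7.7% of all names and 14.5% of miRNA loci; the count was 2 with library totals, 0 with the authors' adjusted p-values and 1 to 5 with a library left out. Of all names 282 were called; the number was 0 with the authors' adjusted p-values and 80 to 414 with a library left out, and stayed within 1.5 times under the other alternatives. With a library left out, small differences changed sign: Lncpint over Pvt1 ran from -0.26 to 0.11, Lncpint over Norad from -0.37 to 0.078 and Pvt1 over Norad from -0.29 to 0.0083. So did the fold changes of Neat1 (-0.17 to 0.52), Hoxaas3 (-8.90 to 0.045, at 0 in 2 AVE0991 libraries) and Pitpnm2os1 (-0.053 to 0.32). The cause was not tested. The authors' library factors as scaling were added after seeing the data and changed no call among the 4 RNAs; they moved the median of all names to -0.07. With AVE0991 the spread between libraries was above counting error for Lncpint, Pvt1 and Norad and below it for Mir34a (1.21% against 2.93%). For Mir34a, 3 values are too few to show a spread truly below counting error. No paired analysis was possible because the recovered libraries carry no replicate numbers.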
